A study of Homo sapiens with 16 samples.

Results

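The genes described here are 3 receptors and 5 ligands of the EGF receptor family, taken by name from the deposited count table: the receptors EGFR, ERBB2 and ERBB3 and the ligands AREG, EREG, HBEGF, TGFA and NRG1. All 8 names matched 1 gene each among the 58735 genes of the table, and all 8 passed the filter on low counts, as did 17647 genes in all. Poly(A) RNA was sequenced from MDA-MB-231 and SUM159, 2 human cell lines derived from triple-negative breast cancer and labelled WT in genotype. SUM159 appears as SUM159PT in the sample titles. The groups were MDA-MB-231 with YES1i, MDA-MB-231 with DMSO, SUM159 with YES1i and SUM159 with DMSO, with 4 libraries each. YES1i is the compound CH6953755, which inhibits YES1, a tyrosine kinase of the Src family. It was given at 8 uM, with DMSO as the solvent control. Cells of all groups were collected 48 h after treatment. MDA-MB-231 was plated in RPMI and SUM159 in Ham's F12, so line and medium cannot be told apart. The series text calls the 4 libraries of a group technical replicates, so the p-values measure only the spread between these libraries.

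EGFR, ERBB2 (HER2) and ERBB3 are cell-surface receptors that signal as pairs. A ligand that binds EGFR or ERBB3 opens the receptor for pairing, ERBB2 has no known ligand of its own and serves as a partner, and ERBB3 has little kinase activity and passes the signal to PI3 kinase. AREG (amphiregulin) and TGFA (transforming growth factor alpha) bind EGFR, EREG (epiregulin) and HBEGF (heparin-binding EGF-like growth factor) bind EGFR and ERBB4, and NRG1 (neuregulin 1) binds ERBB3 and ERBB4. The ligands are made as membrane-anchored precursors and are released by proteases such as ADAM17. Src family kinases, YES1 among them, act downstream of these receptors and can also phosphorylate EGFR. Triple-negative tumours lack amplified ERBB2 and often carry much EGFR.

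Total counts ran from 15876171 to 36261542 per library, at which 3 counts, the limit that a count of 0 allows, equal 0.0827 to 0.189 CPM. Levels are counts scaled to library size by TMM and given as CPM, and this limit covers counting error only. The labelled cell type was checked against marker genes. The hormone receptor genes ESR1 and PGR were at or near 0, with group means of at most 0.608 CPM for ESR1 and 0.0341 CPM for PGR, and VIM, a mesenchymal marker, had group means of 750 to 2445 CPM. Other markers did not follow 1 type. In SUM159, KRT8 had means of 254 CPM with YES1i and 288.5 CPM with DMSO, while KRT19 and CDH1 had 0 in both groups. The luminal and epithelial markers FOXA1 and CDH1 had 0.012 and 2.15 CPM with YES1i and 0.0352 and 3.065 CPM with DMSO in MDA-MB-231. The mesenchymal markers CD44 and AXL had 771 and 717 CPM with YES1i and 614 and 1368 CPM with DMSO in that line. The luminal and epithelial markers KRT8, KRT19 and CLDN4 had means of 556, 455 and 259 CPM with YES1i and 810.2, 394 and 181 CPM with DMSO there, while the mesenchymal markers CDH2 and TWIST1 had 0.826 and 0.0375 CPM with YES1i and 1.26 and 0 CPM with DMSO. The summed level of 6 markers of cycling cells was 868 to 904 CPM with YES1i, against 2330 to 2420 CPM with DMSO in MDA-MB-231, and 787 to 887 CPM with YES1i, against 1792 to 1901 CPM with DMSO in SUM159. Summed levels of 5 endothelial markers were 14.8 to 18.5 CPM with YES1i and 6.27 to 9.16 CPM with DMSO in MDA-MB-231, and 18.3 to 20.1 CPM with YES1i and 10.0 to 11.9 CPM with DMSO in SUM159. Those of 7 leukocyte markers were 12.4 to 14.7 CPM with YES1i and 10.1 to 11.9 CPM with DMSO in MDA-MB-231, and 2.55 to 2.93 CPM with YES1i and 0.94 to 1.47 CPM with DMSO in SUM159. For 11 luminal and epithelial markers they were 1457 to 1665 CPM with YES1i and 1720 to 1875 CPM with DMSO in MDA-MB-231, and 345 to 391 CPM with YES1i and 426 to 455 CPM with DMSO in SUM159. For 7 mesenchymal markers they were 2302 to 2366 CPM with YES1i and 2881 to 2922 CPM with DMSO in MDA-MB-231, and 3859 to 3944 CPM with YES1i and 3206 to 3469 CPM with DMSO in SUM159. Mitochondrial rRNA held 1.29 to 1.39% of counts with YES1i and 0.619 to 0.678% with DMSO in MDA-MB-231, and 1.28 to 1.48% with YES1i and 0.658 to 0.81% with DMSO in SUM159. The part of these differences in the results below was not tested. The gene of the inhibitor's target, YES1, had 93.3 ± 5.32 CPM with YES1i and 94.3 ± 3.92 CPM with DMSO in MDA-MB-231, and 88.9 ± 7.58 CPM with YES1i and 102.7 ± 3.61 CPM with DMSO in SUM159 (SD, n = 4 each). Its log2 fold change in SUM159 was -0.21 (edgeR adjusted p = 0.00392), but -0.09 with upper quartile scaling (adjusted p = 0.206).

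With YES1i, all 5 ligands fell in SUM159, AREG 7.49-fold, EREG 2.87-fold and NRG1 2.504-fold, while EGFR rose 1.30-fold. In MDA-MB-231 the ligands NRG1, HBEGF and EREG fell and AREG and TGFA did not pass the test, while ERBB3 rose 2.64-fold and EGFR fell 1.24-fold. Calls were made at an adjusted p below 0.05 in edgeR's quasi-likelihood F test, adjusted over all tested genes. By this rule 5 of the 8 genes differed between YES1i and DMSO in MDA-MB-231, against 48.9% of all genes tested, and 6 of 8 in SUM159, against 51.6%. Of the 8 in MDA-MB-231, 1 was higher and 4 were lower, where 26.8% and 22.1% of all genes were called in those directions. Of the 8 in SUM159, 1 was higher and 5 were lower, against 25.1% and 26.5%. With 8 genes, these counts alone do not set them apart from the rest of the table. The median log2 fold change of the 8 genes was -0.18 in MDA-MB-231 and -0.54 in SUM159, beside medians over all tested genes of 0.03 and 0.02. In bulk RNA, fewer cells that make a transcript and less of it per cell cannot be told apart.

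**Figure D1:**
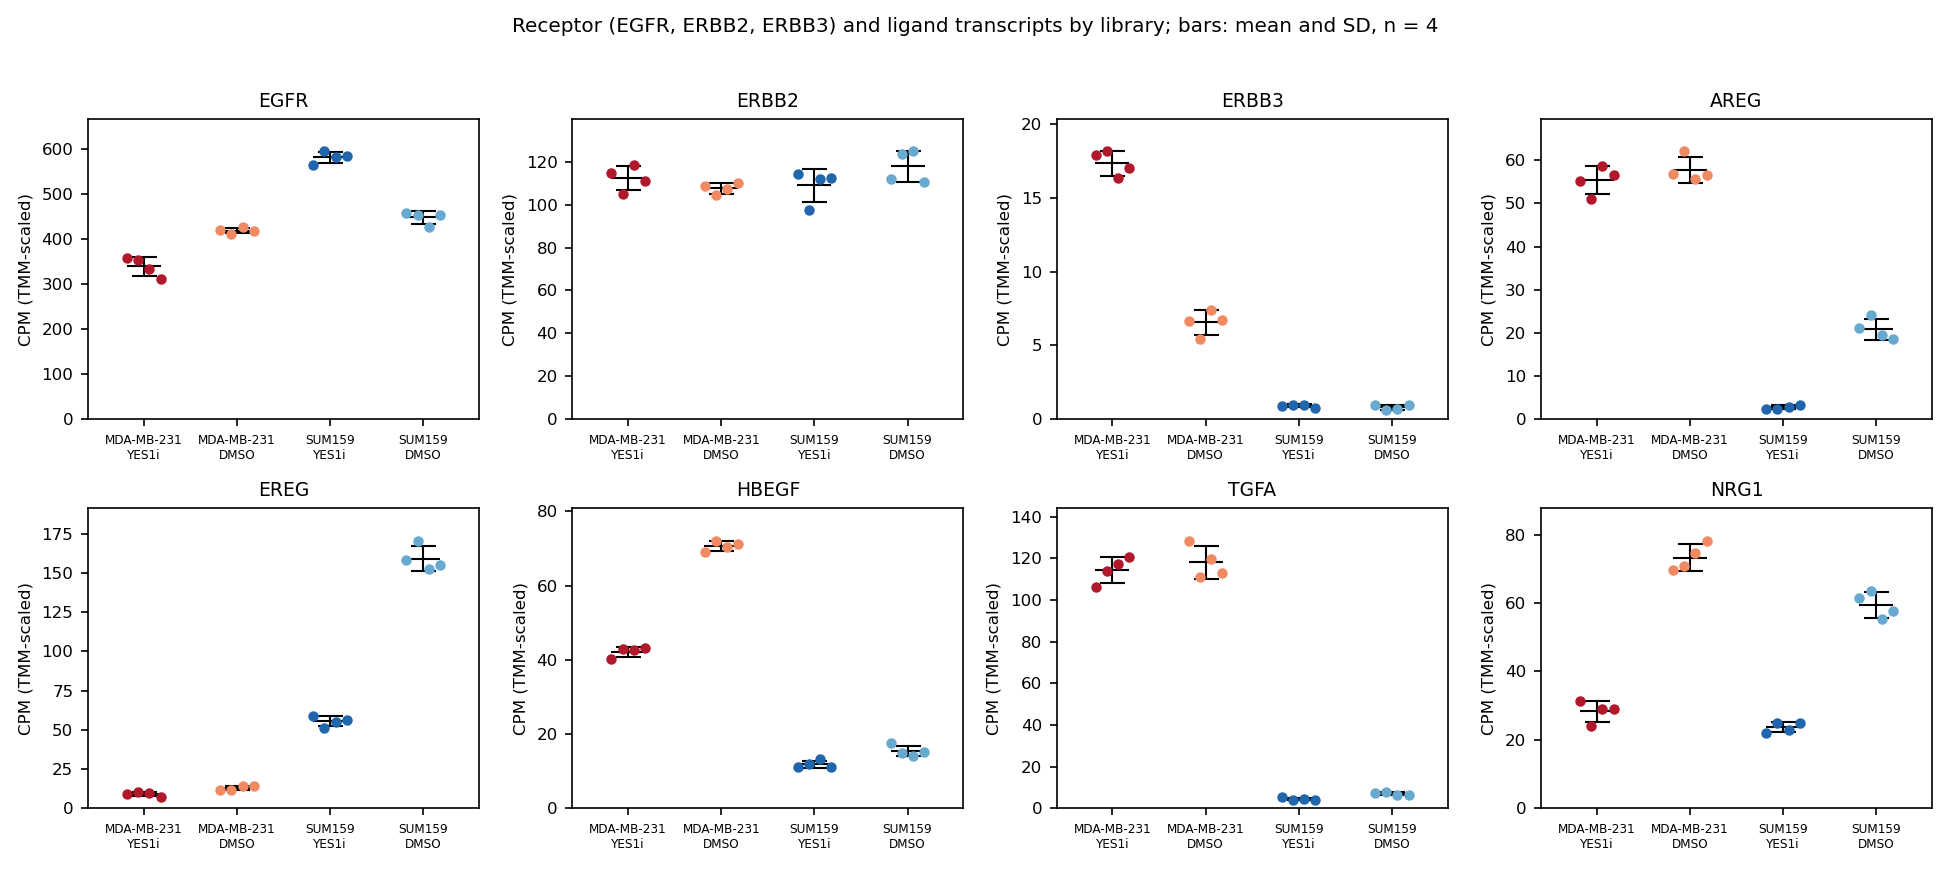
CPM after TMM scaling on the vertical axis of each panel for the 3 receptors and 5 ligands, with 1 point per library in the 4 groups on the horizontal axis and bars for the mean and SD (n = 4). AREG and EREG stand lowest against their DMSO libraries in SUM159, NRG1 is lower with YES1i in both lines, and ERBB3 is higher with YES1i in MDA-MB-231 and near 0 in SUM159.

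The changes with YES1i themselves differed between the lines for 6 of the 8 genes, where 31.1% of all genes did (edgeR, difference of the changes, MDA-MB-231 minus SUM159). These were EGFR, ERBB3, AREG, EREG, HBEGF and TGFA. The difference did not pass the test for ERBB2 and NRG1.

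**Figure D2:**
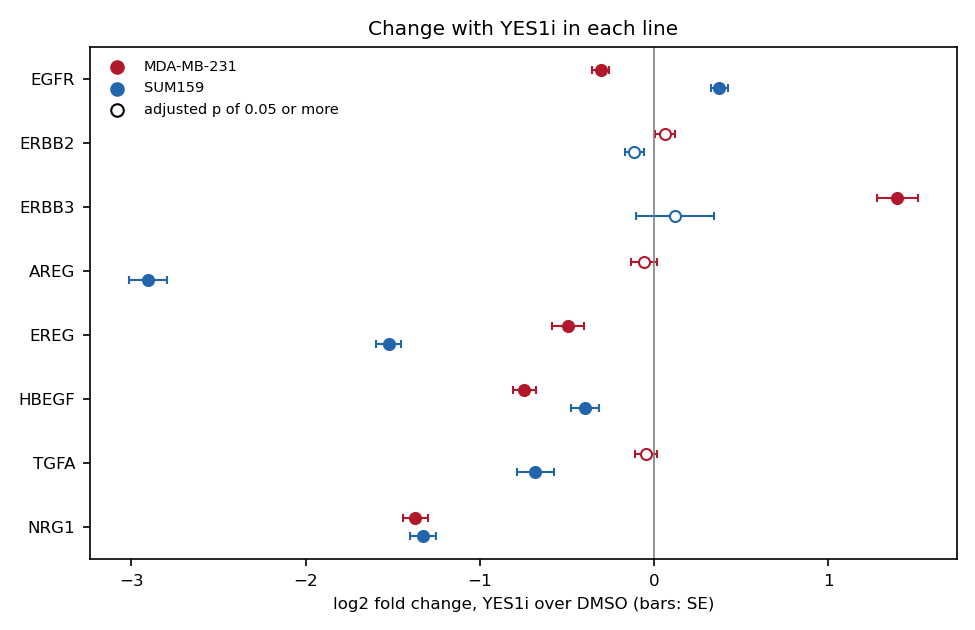
Log2 fold changes of YES1i against DMSO for the 8 genes in MDA-MB-231 and in SUM159, with bars for the standard error of the edgeR fit and open circles where the adjusted p was 0.05 or more. EGFR lies at -0.30 in MDA-MB-231 and at 0.38 in SUM159, AREG at -0.06 and -2.91, and NRG1 at -1.37 and -1.32.

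EGFR (ENSG00000146648, chromosome 7, 55019021 to 55211628, forward strand, hg38) moved in opposite directions in the lines. In MDA-MB-231 it had 358, 353, 332 and 311 CPM with YES1i, against 419.98, 411, 426 and 417 CPM with DMSO. In SUM159 it had 564, 594, 583 and 584 CPM with YES1i, against 457, 454, 428 and 452 CPM with DMSO. Every YES1i library lay below every DMSO library in MDA-MB-231 and above every one in SUM159. Non-overlap of this kind held for 47.3% of all tested genes in MDA-MB-231 and 43.3% in SUM159. On the log2 scale EGFR fell by 0.30 (SE 0.05) in MDA-MB-231 (edgeR adjusted p = 3.73e-06) and rose by 0.38 (SE 0.05) in SUM159 (edgeR adjusted p = 1.11e-07). The changes differed by -0.68 (SE 0.07, edgeR adjusted p = 3.82e-09). Across the alternatives the log2 fold change in MDA-MB-231 ran from -0.35 to -0.27. The antisense gene EGFR-AS1 held 0.273% as many counts as EGFR.

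ERBB2 (ENSG00000141736, chromosome 17, 39687914 to 39730426, forward strand), the partner receptor, did not pass the test in either line. It had 105 to 119 CPM with YES1i and 104 to 110.2 CPM with DMSO in MDA-MB-231, and 97.5 to 114 CPM with YES1i and 111 to 125 CPM with DMSO in SUM159. The groups overlapped in both lines. ERBB2 stood at a log2 fold change of 0.06 in MDA-MB-231 (SE 0.06, edgeR adjusted p = 0.369) and of -0.11 in SUM159 (SE 0.06, edgeR adjusted p = 0.1). Its counts are uncertain, because ERBB2 shares 571 exon bases with MIEN1 and 194 with PGAP3 on the opposite strand, whose counts came to 25.1% and 10.9% of its own.

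ERBB3 (ENSG00000065361, chromosome 12, 56076799 to 56103505, forward strand), the neuregulin receptor, was the gene of the 8 that rose in MDA-MB-231. It had 17.9, 18.1, 16.3 and 17.0 CPM with YES1i, against 6.64, 5.45, 7.42 and 6.70 CPM with DMSO in that line. The lowest YES1i library was above the highest DMSO library. ERBB3 rose by 1.40 on the log2 scale (SE 0.12, edgeR adjusted p = 2.76e-11). In SUM159 it had 0.893, 0.976, 0.995 and 0.779 CPM with YES1i, against 0.973, 0.645, 0.688 and 0.940 CPM with DMSO, and the groups overlapped. These levels rest on 72 counts over the 4 YES1i libraries and 75 over the 4 DMSO libraries, so the log2 fold change of 0.12 has a wide SE of 0.22 (edgeR adjusted p = 0.731). The changes differed between the lines by 1.28 (SE 0.25, edgeR adjusted p = 0.000226).

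AREG and EREG lie side by side on chromosome 4 and are transcribed in the same direction, with 56382 bases between them. They had the largest falls of the 8 in SUM159. The 250 bases before their start sites are shown for these falls, so the choice of this pair rests on its values. The sequences are those of RefSeq on GRCh38.p14, forward strand, at chr4:74444886-74445135 for AREG and chr4:74364895-74365144 for EREG.
AREG: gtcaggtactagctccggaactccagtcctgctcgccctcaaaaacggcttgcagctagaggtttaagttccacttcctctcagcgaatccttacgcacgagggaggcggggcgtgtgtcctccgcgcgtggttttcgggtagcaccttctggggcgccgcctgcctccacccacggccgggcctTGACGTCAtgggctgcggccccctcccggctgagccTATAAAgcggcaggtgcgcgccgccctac
EREG: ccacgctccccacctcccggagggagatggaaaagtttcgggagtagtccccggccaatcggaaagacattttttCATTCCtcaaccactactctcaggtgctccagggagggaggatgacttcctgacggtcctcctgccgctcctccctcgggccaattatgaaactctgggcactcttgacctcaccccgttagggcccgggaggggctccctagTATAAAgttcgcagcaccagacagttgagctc
Capitals mark matches on either strand to 4 motifs. The AP-1 motif was searched as TGANTCA. The cyclic AMP response element, called CRE here, was searched as TGACGTCA. The motif of TEAD factors was searched as GGAATG, and the TATA box as TATAAA. AREG holds a CRE match 65 to 58 bases before its start and a TATA match at 29 to 24 bases. EREG holds a TEAD match on the reverse strand 175 to 170 bases before its start and a TATA match at 32 to 27 bases, and no match overlaps another. Of 35116 promoters of this length, 1.65% hold the CRE letters, 11.9% the TEAD letters, 10.7% the TATA letters and 6.57% the AP-1 letters. A match describes the letters and is not a binding site. Of the 8 genes, 6 had a promoter entry. An EGFR entry that starts 90818 bases inside the gene held 2 AP-1, 1 TEAD and 2 TATA matches. The EGFR entry near the gene start held none. ERBB2 held 1 AP-1 match, and the HBEGF and TGFA entries held none.

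AREG (ENSG00000109321, chromosome 4, 74445134 to 74455009, forward strand) showed the largest change of the 8 in SUM159. In SUM159 it had 2.32, 2.42, 2.93 and 3.33 CPM with YES1i, against 21.0, 24.1, 19.5 and 18.7 CPM with DMSO. In MDA-MB-231 it had 55.2, 51.0, 58.6 and 56.6 CPM with YES1i, against 56.7, 62.0, 55.6 and 56.5 CPM with DMSO. The groups were far apart in SUM159 and overlapped in MDA-MB-231. AREG fell by 2.91 on the log2 scale in SUM159 (SE 0.11, edgeR adjusted p = 1.12e-18) and stood at -0.06 in MDA-MB-231 (SE 0.07, edgeR adjusted p = 0.55). The changes differed by 2.85 (SE 0.13, edgeR adjusted p = 3.29e-16).

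EREG (ENSG00000124882, chromosome 4, 74365143 to 74388751, forward strand) fell in both lines. In SUM159 it had 58.7, 51.2, 55.2 and 56.5 CPM with YES1i, against 158, 171, 152.5 and 155 CPM with DMSO. In MDA-MB-231 it had 9.23, 10.6, 9.93 and 7.502 CPM with YES1i, against 11.97, 11.9, 14.3 and 14.04 CPM with DMSO. The groups did not overlap in either line. EREG fell by 1.52 on the log2 scale in SUM159 (SE 0.07, edgeR adjusted p = 1.27e-16) and fell by 0.49 in MDA-MB-231 (SE 0.09, edgeR adjusted p = 5.16e-05). The fall was larger in SUM159, with a difference of 1.03 (SE 0.12, edgeR adjusted p = 4.91e-08).

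HBEGF (ENSG00000113070, chromosome 5, 140332843 to 140346631, reverse strand) fell in both lines and more in MDA-MB-231. It had 40.2, 43.0, 42.6 and 43.1 CPM with YES1i, against 69.1, 72.1, 70.4 and 71.3 CPM with DMSO in MDA-MB-231. In SUM159 it had 11.2, 11.9, 13.2 and 11.2 CPM with YES1i, against 17.5, 14.97, 14.1 and 15.3 CPM with DMSO. No YES1i library reached the lowest DMSO library of its line. HBEGF fell by 0.74 on the log2 scale in MDA-MB-231 (SE 0.07, edgeR adjusted p = 1.02e-10) and fell by 0.39 in SUM159 (SE 0.08, edgeR adjusted p = 9.9e-05). The difference between these changes was -0.35 (SE 0.10, edgeR adjusted p = 0.00907).

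TGFA (ENSG00000163235, chromosome 2, 70447280 to 70554193, reverse strand) fell in SUM159, where its level was low. It had 5.30, 4.14, 4.37 and 3.89 CPM with YES1i, against 7.13, 8.00, 6.56 and 6.46 CPM with DMSO in SUM159. In MDA-MB-231 it had 106.1, 114, 117 and 121 CPM with YES1i, against 128, 111, 119.7 and 113 CPM with DMSO. The groups stood apart in SUM159 and overlapped in MDA-MB-231. TGFA fell by 0.68 on the log2 scale in SUM159 (SE 0.10, edgeR adjusted p = 2.89e-06) and stood at -0.04 in MDA-MB-231 (SE 0.06, edgeR adjusted p = 0.604). The changes differed by 0.64 (SE 0.12, edgeR adjusted p = 0.000158).

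NRG1 (ENSG00000157168, chromosome 8, 31639386 to 32767959, forward strand), a ligand of ERBB3, fell in both lines. In MDA-MB-231 it had 31.4, 24.0, 28.9 and 29.1 CPM with YES1i, against 69.6, 70.7, 74.7 and 78.3 CPM with DMSO. In SUM159 it had 22.1, 25.0, 22.8 and 24.8 CPM with YES1i, against 61.4, 63.5, 55.2 and 57.7 CPM with DMSO. In each line the YES1i libraries lay well below all DMSO libraries. NRG1 fell by 1.37 on the log2 scale in MDA-MB-231 (SE 0.07, edgeR adjusted p = 1.54e-15) and fell by 1.32 in SUM159 (SE 0.07, edgeR adjusted p = 6.87e-15). The changes differed by -0.05 (SE 0.10, edgeR adjusted p = 0.794). Within MDA-MB-231 the transcript of the ERBB3 ligand NRG1 was lower and that of ERBB3 higher with YES1i. NRG2, another neuregulin, was higher with YES1i in that line, at 2.36 CPM against 1.17 CPM with DMSO.

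The lines also differed in which ligands they made. In DMSO, 7 of the 8 genes differed between MDA-MB-231 and SUM159, where 76.6% of all tested genes did. Of the 8, 5 were higher and 2 lower in MDA-MB-231, against 37.8% and 38.7% of all genes. All 8 genes had DMSO groups that did not overlap between the lines, as did 72.4% of all tested genes. TGFA was 16.8-fold higher, ERBB3 7.82-fold higher, HBEGF 4.54-fold higher and AREG 2.77-fold higher in MDA-MB-231, each with its edgeR adjusted p under the threshold. EREG was 12.2-fold lower in MDA-MB-231 (log2 difference -3.60, SE 0.08, edgeR adjusted p = 8.7e-26). NRG1 differed least among the ligands, with a log2 difference of 0.30 (SE 0.07, edgeR adjusted p = 0.00025). EGFR was at -0.10 (SE 0.05, edgeR adjusted p = 0.0641) and passed the threshold in 4 of the alternatives. ERBB2 was at -0.13 (SE 0.06, edgeR adjusted p = 0.0377), a call lost under RLE scaling (adjusted p = 0.0702), under DESeq2 (adjusted p = 0.0754) and when any of 11 single libraries was left out (adjusted p up to 0.191).

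Levels of different genes were compared as CPM per kilobase of the gene length in the table. For 58724 of 58735 genes this length is that of all annotated exons joined, not of the transcripts made in these cells. It is 1648 bases for AREG, with 3 annotated transcripts, and 11328 bases for NRG1, with 22. The orders, sums and shares of different genes below depend on this length, and other lengths were not tested. In MDA-MB-231 with YES1i the order of mean levels was AREG at 33.6, EGFR at 27.1, TGFA at 23.1, HBEGF at 13.99, ERBB2 at 10.9, NRG1 at 2.501, ERBB3 at 1.92 and EREG at 1.63 CPM per kb. In MDA-MB-231 with DMSO it was AREG at 35.0, EGFR at 33.4, TGFA at 23.8, HBEGF at 23.4, ERBB2 at 10.4, NRG1 at 6.47, EREG at 2.28 and ERBB3 at 0.725 CPM per kb. Of neighbours in these orders, ERBB3 and EREG with YES1i, and AREG and EGFR, and TGFA and HBEGF with DMSO, overlapped in their library ranges. In SUM159 with YES1i the order was EGFR at 46.4, ERBB2 at 10.6, EREG at 9.69, HBEGF at 3.93, NRG1 at 2.09, AREG at 1.67, TGFA at 0.891 and ERBB3 at 0.101 CPM per kb. In SUM159 with DMSO it was EGFR at 35.7, EREG at 27.8, AREG at 12.7, ERBB2 at 11.4, NRG1 at 5.25, HBEGF at 5.12, TGFA at 1.42 and ERBB3 at 0.0898 CPM per kb. In SUM159 the ranges of ERBB2 and EREG and of NRG1 and AREG overlapped with YES1i, and those of AREG and ERBB2 and of NRG1 and HBEGF overlapped with DMSO.

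The 5 ligand levels per kb summed to 74.8 ± 2.83 with YES1i and 91.0 ± 1.05 with DMSO in MDA-MB-231 (SD, n = 4 each). In SUM159 they summed to 18.3 ± 0.588 with YES1i and 52.3 ± 3.35 with DMSO. AREG held 44.9 ± 1.47% of this sum with YES1i and 38.5 ± 1.58% with DMSO in MDA-MB-231, but 9.12 ± 1.40% with YES1i and 24.1 ± 1.30% with DMSO in SUM159. EREG held 53.0 ± 2.01% with YES1i and 53.3 ± 1.08% with DMSO in SUM159, where it led in both groups. The share of HBEGF was 18.7 ± 0.721% with YES1i and 25.8 ± 0.507% with DMSO in MDA-MB-231, and 21.5 ± 1.73% with YES1i and 9.82 ± 0.925% with DMSO in SUM159. HBEGF thus held a larger share with YES1i in SUM159, where its own level was lower. The share of NRG1 was 3.35 ± 0.361% with YES1i and 7.12 ± 0.459% with DMSO in MDA-MB-231, and 11.5 ± 0.97% with YES1i and 10.04 ± 0.186% with DMSO in SUM159. The remaining share was TGFA, at 30.8 ± 1.11% with YES1i and 26.1 ± 1.76% with DMSO in MDA-MB-231, and 4.88 ± 0.661% with YES1i and 2.71 ± 0.1% with DMSO in SUM159.

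**Figure D3:**
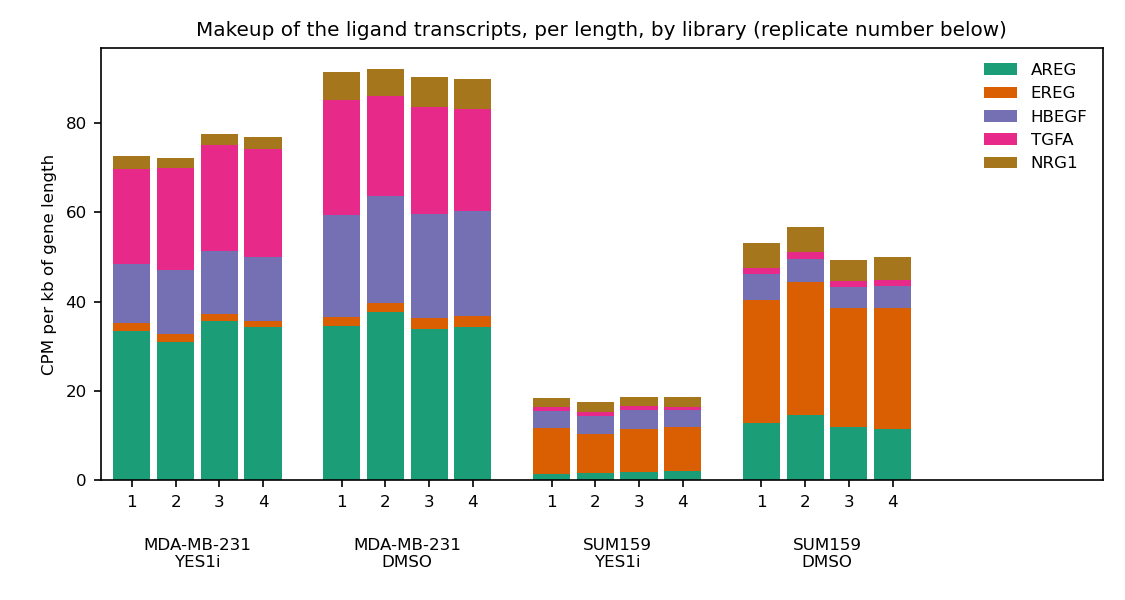
Stacked levels of the 5 ligands in CPM per kb of gene length on the vertical axis, with 1 bar per library, grouped by line and treatment and numbered by replicate. Bars reach 72.1 to 77.6 with YES1i and 90.01 to 92.3 with DMSO in MDA-MB-231, and 17.4 to 18.7 with YES1i and 49.4 to 56.7 with DMSO in SUM159, where EREG is the widest band.

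The genes around EREG and AREG were looked at after their values had been seen. Within 1000000 bases on either side of the pair lie 19 protein-coding genes, of which 12 were tested. In MDA-MB-231, 3 of the 12 were higher and 2 lower with YES1i, and in SUM159, 2 were higher and 8 lower. The shares of all tested genes were 26.8% higher and 22.1% lower in MDA-MB-231, beside 25.1% higher and 26.5% lower in SUM159. The 12 include EREG and AREG, around which the stretch was drawn after their falls were known, so nothing is read from these counts. The 8 that fell in SUM159 were AREG, EREG, AFP, MTHFD2L and the chemokine genes CXCL8, CXCL1, CXCL3 and CXCL2. CXCL8, which encodes interleukin 8, had 4.41 ± 0.548 CPM with YES1i and 222 ± 25.0 CPM with DMSO in SUM159 (SD, n = 4 each), and fell by 5.64 on the log2 scale (SE 0.10, edgeR adjusted p = 1.07e-25). In MDA-MB-231 it had 5.68 ± 0.596 CPM with YES1i and 5.54 ± 0.655 CPM with DMSO. CXCL2 fell by 2.72 (SE 0.11, edgeR adjusted p = 1.75e-17) and CXCL3 fell by 1.96 (SE 0.17, edgeR adjusted p = 4.99e-11) on the log2 scale in SUM159. The chemokine genes lie on the EREG side. BTC and PARM1, on the AREG side, were higher with YES1i in SUM159 and also in MDA-MB-231. The other EGF family ligand of this stretch, EPGN, had 1.34 ± 0.453 CPM with YES1i and 2.19 ± 0.389 CPM with DMSO in SUM159 (log2 fold change -0.70, SE 0.31, edgeR adjusted p = 0.0612).

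**Figure D4:**
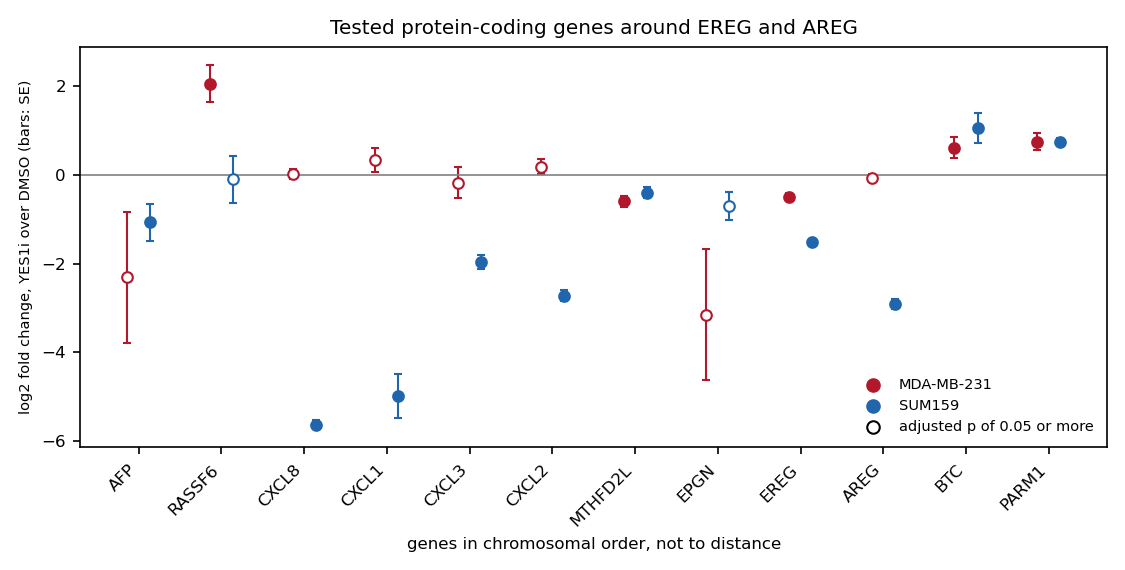
Log2 fold change of YES1i against DMSO, with bars for the standard error, for the 12 tested protein-coding genes around EREG and AREG, in chromosomal order but not to distance, in MDA-MB-231 and in SUM159. Open circles mark an adjusted p of 0.05 or more, and in SUM159 CXCL8 is lowest at -5.64, with AREG at -2.91 and EREG at -1.52.

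Of the 7 other EGF and neuregulin family genes, 5 were tested, all at low levels: ERBB4, the fourth receptor of the family, and the ligands EGF, BTC (betacellulin), EPGN (epigen) and NRG2. In MDA-MB-231, 3 were higher and 0 lower. Beside the counts of this list and of those below, 26.8% of all tested genes were higher and 22.1% lower in MDA-MB-231. In SUM159 these shares were 25.1% and 26.5%. No set test was run on the lists. ERBB4 had 34 counts over the 4 YES1i libraries and 1 count over the 4 DMSO libraries in MDA-MB-231, with 52 and 44 counts in SUM159. NRG2 had 2.36 ± 0.0805 CPM with YES1i and 1.17 ± 0.263 CPM with DMSO in MDA-MB-231, and rose by 1.02 on the log2 scale there (SE 0.23, edgeR adjusted p = 0.00043). BTC, which binds EGFR and ERBB4, was higher in MDA-MB-231 by 0.61 (SE 0.24, edgeR adjusted p = 0.0343) and in SUM159 by 1.06 (SE 0.35, edgeR adjusted p = 0.0119). EGF was higher in SUM159 by 0.94 (SE 0.35, edgeR adjusted p = 0.0282), at 0.677 ± 0.295 CPM with YES1i and 0.349 ± 0.12 CPM with DMSO. The BTC calls ended when single libraries were left out (adjusted p up to 0.097 in MDA-MB-231 and 0.0756 in SUM159), and the EGF call did so too (up to 0.135). The 2 untested genes were NRG3, with 1 count in all libraries, and NRG4, with at most 23 counts in a group.

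The 16 genes of ligand shedding and trafficking include 15 tested genes. In MDA-MB-231, 7 were higher and 2 lower with YES1i (median log2 fold change 0.13), and in SUM159, 5 were higher and 7 lower (median -0.14, but -0.02 with 5 higher and 4 lower under upper quartile scaling). TIMP3, an inhibitor of metalloproteases including ADAM17, had 1129 ± 13.9 CPM with YES1i and 689 ± 8.70 CPM with DMSO in MDA-MB-231, and 176 ± 5.46 CPM with YES1i and 47.7 ± 0.808 CPM with DMSO in SUM159. TIMP3 rose by 0.71 in MDA-MB-231 (SE 0.04, edgeR adjusted p = 1.75e-14) and by 1.88 in SUM159 (SE 0.05, edgeR adjusted p = 6.66e-23). ADAM17, the main sheddase of EGFR ligands, rose by 0.57 (SE 0.07, edgeR adjusted p = 1.08e-07) in MDA-MB-231 and by 0.23 (SE 0.07, edgeR adjusted p = 0.0117) in SUM159, though its counts overlap those of IAH1 on the opposite strand, which came to 93.7% of its own. The call in SUM159 ended without replicate 3 with YES1i (adjusted p = 0.0623) or replicate 4 with DMSO (adjusted p = 0.0551). MMP14, a membrane metalloprotease, rose by 0.56 (SE 0.05) in MDA-MB-231 and by 1.13 (SE 0.06) in SUM159. FURIN, a precursor-cleaving protease, stood at -0.03 (SE 0.06, edgeR adjusted p = 0.757) in MDA-MB-231 and fell by 0.47 (SE 0.06, edgeR adjusted p = 1.75e-07) in SUM159.

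Of the 44 genes of receptor ubiquitination, endocytosis and feedback, 41 were tested. In MDA-MB-231, 19 were higher and 8 lower (median 0.12), and in SUM159, 8 were higher and 15 lower (median -0.09), a split that turned to 14 higher and 9 lower (median 0.03) under upper quartile scaling. CBLB, a ubiquitin ligase that acts on activated EGFR, rose by 1.22 (SE 0.07, edgeR adjusted p = 5.01e-15) in MDA-MB-231 and by 0.43 (SE 0.07, edgeR adjusted p = 3.94e-06) in SUM159. MUC1, a membrane mucin that binds EGFR, rose by 1.03 (SE 0.08) in MDA-MB-231 and by 1.31 (SE 0.17) in SUM159, where it had 1.95 ± 0.13 CPM with YES1i and 0.783 ± 0.0382 CPM with DMSO. UBASH3B fell by 0.61 (SE 0.06) in MDA-MB-231 and fell by 1.505 (SE 0.07) in SUM159. SPRY4, a feedback inhibitor of receptor signalling to ERK, rose by 0.50 (SE 0.05) in MDA-MB-231 and fell by 0.90 (SE 0.06) in SUM159, and these changes differed by 1.39 (SE 0.08, edgeR adjusted p = 1.22e-14). DUSP3, a phosphatase, rose by 0.81 (SE 0.05) in MDA-MB-231 and by 0.18 (SE 0.05, edgeR adjusted p = 0.0045) in SUM159.

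A list of 18 genes known as transcribed in response to ERK was taken by name, and ERK activity itself was not measured. All 18 were tested. In MDA-MB-231, 7 were higher and 4 lower (median 0.15), and in SUM159, 1 was higher and 11 lower (median -0.43). The change was higher in MDA-MB-231 than in SUM159 for 11 of the 18 and lower for 0, where the difference was called for 19.1% and 12.1% of all tested genes in those directions. EGR1, an immediate-early transcription factor, had 4.25 ± 0.92 CPM with YES1i and 6.44 ± 0.837 CPM with DMSO in MDA-MB-231, and 2.04 ± 0.188 CPM with YES1i and 16.5 ± 3.21 CPM with DMSO in SUM159. It fell by 0.58 (SE 0.16, edgeR adjusted p = 0.00272) in MDA-MB-231 and fell by 3.02 (SE 0.16, edgeR adjusted p = 3.4e-15) in SUM159. DUSP6, an ERK phosphatase, rose by 0.51 (SE 0.06) in MDA-MB-231 and fell by 1.67 (SE 0.20) in SUM159, where it had 0.734 ± 0.208 CPM with YES1i and 2.33 ± 0.578 CPM with DMSO. DUSP5 rose by 1.04 (SE 0.06) in MDA-MB-231 and fell by 0.92 (SE 0.06) in SUM159. IER3 rose by 0.44 (SE 0.07) in MDA-MB-231 and fell by 1.55 (SE 0.08) in SUM159. ETV1 rose by 1.01 (SE 0.06) in MDA-MB-231 and stood at -0.18 (SE 0.06, edgeR adjusted p = 0.0171) in SUM159, a call lost under RLE scaling (adjusted p = 0.0794) and upper quartile scaling (adjusted p = 0.434).

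Of 49 adaptors and effectors, 47 were tested. In MDA-MB-231, 17 were higher and 15 lower, and in SUM159, 9 were higher and 17 lower (median -0.06, but 0.06 with 17 higher and 14 lower under upper quartile scaling). GAB2, a docking protein, rose by 0.64 (SE 0.09) in MDA-MB-231 and by 0.59 (SE 0.10) in SUM159, and PIK3R3, a regulatory subunit of PI3 kinase, fell by 0.71 (SE 0.12) and fell by 0.72 (SE 0.11). STAT5A rose by 0.36 (SE 0.11) in MDA-MB-231 and by 1.52 (SE 0.18) in SUM159, where it had 4.36 ± 0.702 CPM with YES1i and 1.55 ± 0.615 CPM with DMSO. PIK3CD, a catalytic subunit of PI3 kinase, rose by 0.72 (SE 0.06) in MDA-MB-231, stood at -0.11 (SE 0.07, edgeR adjusted p = 0.235) in SUM159 and is uncertain, since CLSTN1 on the opposite strand overlaps it with many more counts. SHC2, an adaptor under 5 CPM on average over the 16 libraries, was picked out here after its values were seen. It had the largest rise of the list, 2.94 (SE 0.16) in MDA-MB-231 and 3.13 (SE 0.21) in SUM159. All 21 partner receptors were tested: 8 were higher and 7 lower in MDA-MB-231, and 10 were higher and 6 lower in SUM159. AXL, a receptor kinase that can pair with EGFR, fell by 0.93 (SE 0.05, edgeR adjusted p = 1.11e-15) in MDA-MB-231 and fell by 0.24 (SE 0.05, edgeR adjusted p = 0.000107) in SUM159. CD9, a tetraspanin that binds membrane-anchored HBEGF, rose by 0.99 (SE 0.05) in MDA-MB-231 and fell by 0.35 (SE 0.05) in SUM159. PDGFRB fell by 0.95 (SE 0.08) in MDA-MB-231 and rose by 0.55 (SE 0.07) in SUM159. EPHA2 fell by 0.63 (SE 0.09) in MDA-MB-231 and fell by 0.61 (SE 0.09) in SUM159. DDR2 stood at -0.07 (SE 0.21, edgeR adjusted p = 0.827) in MDA-MB-231 and rose by 1.52 (SE 0.12) in SUM159. Its level in MDA-MB-231 was low, at 1.33 ± 0.151 CPM with YES1i and 1.40 ± 0.286 CPM with DMSO. ITGB4 fell by 0.17 (SE 0.06, edgeR adjusted p = 0.0218) in MDA-MB-231 and rose by 0.92 (SE 0.06) in SUM159, and it overlaps GALK1 on the opposite strand. The ITGB4 call in MDA-MB-231 ended without replicate 2 or 4 of either group there (adjusted p = 0.0649 to 0.0694).

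**Figure D5:**
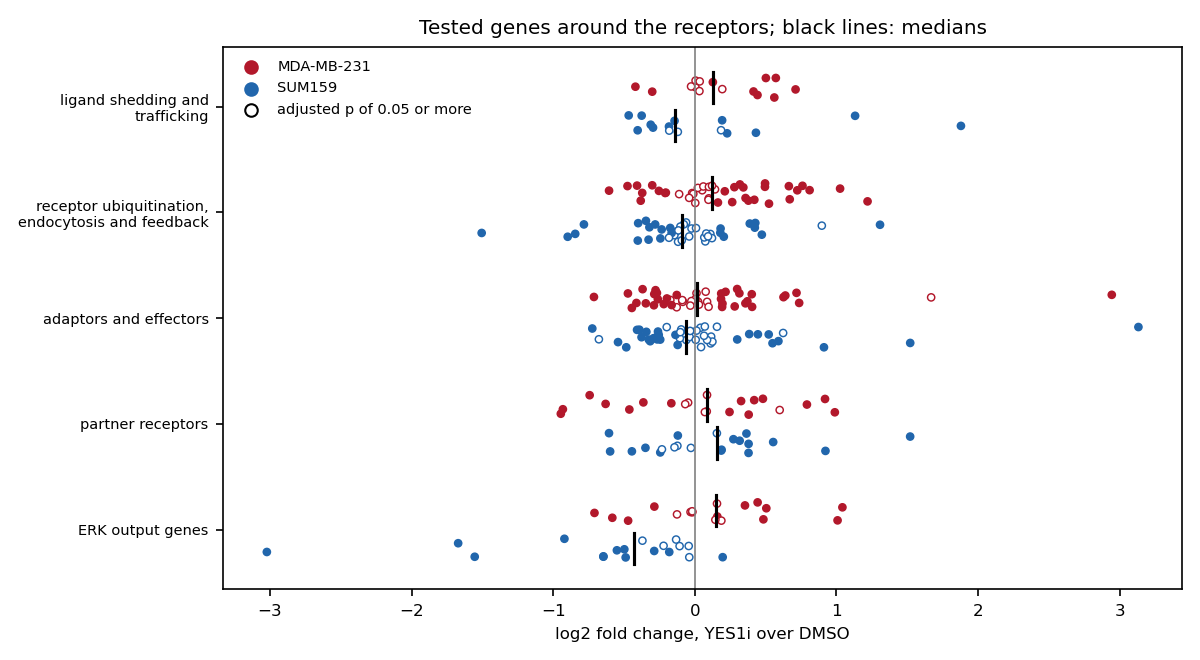
Log2 fold change of YES1i against DMSO for each tested gene of 5 lists around the receptors, with 1 point per gene, open where the adjusted p was 0.05 or more, and a black line for the median, in MDA-MB-231 and in SUM159. The genes listed as responding to ERK have a median of 0.15 in MDA-MB-231 and -0.43 in SUM159.

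The genes whose profile over the 16 libraries lay nearest to each of the 8 were sought among 10877 protein-coding genes at 5 CPM or more, by the root mean square distance of log2 CPM centred on each gene's mean. The nearest to EGFR were MPRIP, at a distance of 0.06, and UBN1, at 0.08, and to ERBB2 HMG20B and DUS1L, both at 0.06. SARDH and ACSL5 lay nearest to ERBB3, both at 0.29. DMBT1 and IL7R lay nearest to AREG, both at 0.49, the largest distance of the 8. EFNB1 (0.28) was nearest to EREG, MGAT5B and ADAM19 (0.15 each) to HBEGF, and TGM2 (0.14) and DYSF (0.17) to TGFA. NRG1 lay nearest to MCM8 and MCM6, both at 0.14, which act in DNA replication and repair. MCM6 had 65.4 ± 4.35 CPM with YES1i and 143 ± 2.94 CPM with DMSO in MDA-MB-231, and 47.3 ± 0.327 CPM with YES1i and 119.7 ± 2.22 CPM with DMSO in SUM159. Some of these nearest genes overlap a gene on the opposite strand, so their counts and profiles are uncertain. As a share of the gene's own count, that gene held 100.3% for ADAM19, 84.9% for UBN1 and 77.8% for HMG20B. It held 58.9% for ACSL5 and 12.4% for TGM2.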

How the data were processed

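The authors deposited 1 table of read counts per gene for the 16 libraries, with gene coordinates, names and lengths. Per the submitters' processing notes, HISAT2 2.0.5, featureCounts 1.5.0-p3 and build hg38 were named, with no role. Which annotation was counted, and how strand, overlaps and multi-mapped reads were treated, is not given in the sources used here, so genes that overlap others are uncertain. All 58735 gene IDs of the table are in GENCODE 29. Per the labels' protocols, poly(A) RNA was copied with random hexamers into libraries that may or may not have kept the strand.

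The deposited counts entered edgeR 4.0.16 (with limma 3.58.1 in R 4.3.3) without change. Genes were filtered by filterByExpr over the 4 groups and scaled by TMM. A single model of all libraries gave robust quasi-likelihood F tests, adjusted by Benjamini-Hochberg over 17647 genes, and the standard errors follow from F. The steps were tested on simulated counts. The 8 genes, the lists and the tests were chosen with earlier results of these data known. Named were the 8 genes, YES1, the 7 other family genes, per list and line the 3 called genes with the largest changes at 5 CPM or more on average over all 16 libraries, and the 2 genes nearest to each of the 8 in profile, of which 1 is not reported here. DUSP6, MUC1, STAT5A, SARDH and DYSF were under 5 CPM in both SUM159 groups, and DDR2 and EFNB1 in both MDA-MB-231 groups. Other genes were chosen after their values were seen. Replicate libraries differed by more than sampling noise (chi-square over degrees of freedom 2.30 to 21.7), so none was counted as a duplicate. Results were recomputed with RLE or upper quartile scaling, with DESeq2 1.42.0 or limma-voom, without the filter or with a mean count of at least 10, with each line fitted alone, with the replicate number as a block, at an adjusted p under 0.01, and without each library.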

Additional observations from a re-analysis of the deposited data

Results flagged for a closer look

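The change with YES1i differed between the lines for 37 of 53 named genes with a test of that difference (edgeR, adjusted p under 0.05). Most of the 53 were named for a large change in a line or for a profile near that of 1 of the 8, so this count is not read against that over all genes. On the log2 scale, as the change in MDA-MB-231 minus the change in SUM159, the differences of the receptors and ligands were EGFR -0.68, ERBB3 1.28, AREG 2.85, EREG 1.03, HBEGF -0.35 and TGFA 0.64. EGFR moved in opposite directions in the lines, while ERBB3 rose in MDA-MB-231 and did not pass the test in SUM159. ERBB4 differed by 4.26, a fitted value that depends on the prior count, since MDA-MB-231 with DMSO held 1 count.

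Among the other named genes the difference was above 0 for EGR1 2.44, DUSP6 2.18, IL7R 2.08, IER3 2.00, DUSP5 1.96, SPRY4 1.39, CD9 1.34, ETV1 1.19 and DMBT1 1.17. It was also above 0 for EFNB1 1.04, SARDH 1.03, UBASH3B 0.90, PIK3CD 0.82, CBLB 0.79, DUSP3 0.63, TGM2 0.60, DYSF 0.60, FURIN 0.44, ADAM17 0.34, ACSL5 0.28 and MCM6 0.21. It was below 0 for DDR2 -1.59, PDGFRB -1.50, TIMP3 -1.17, STAT5A -1.16, ITGB4 -1.09, MPRIP -0.75, AXL -0.69, MMP14 -0.57 and UBN1 -0.55. The differences of ACSL5 and MCM6 were no longer called under RLE scaling (adjusted p = 0.0986 and 0.096) or upper quartile scaling (0.226 and 0.263), and that of ADAM17 was not called under upper quartile scaling (0.0874). Those of ACSL5 and MCM6 also lost the call under DESeq2, without the filter, with the replicate number as a block and without single libraries (adjusted p up to 0.202 for ACSL5 and 0.0889 for MCM6).

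In 13 of 211 groups of 4 libraries, the gap between the highest or lowest library and its nearest neighbour, over the whole range of the group, was above Dixon's critical value for 4 libraries. Chance alone gives about 1 in 20 such groups. The gap is set against the group's own spread, so some of these libraries differ little in CPM, as for SARDH and AXL with DMSO in MDA-MB-231. EGFR had 428 CPM in replicate 3 of SUM159 with DMSO and 452 to 457 CPM in the others. In replicate 2 of SUM159 with YES1i, ERBB2 stood at 97.5 CPM, with 112 to 114 CPM in the other libraries. ERBB4 had 0.852 CPM in replicate 2 of MDA-MB-231 with YES1i and 0.336 to 0.350 CPM in the others. In replicate 3 of SUM159 with DMSO, BTC stood at 0.138 CPM, with 0.452 to 0.470 CPM in the other libraries. SPRY4 had 94.6 CPM in replicate 2 of MDA-MB-231 with DMSO and 99.5 to 100.1 CPM in the others. In replicate 2 of MDA-MB-231 with DMSO, AXL stood at 1386 CPM, with 1360 to 1364 CPM in the other libraries. AXL had 772 CPM in replicate 3 of MDA-MB-231 with YES1i and 694 to 704 CPM in the others. In replicate 2 of SUM159 with YES1i, DUSP5 stood at 49.8 CPM, with 58.7 to 60.5 CPM in the other libraries. HMG20B had 125 CPM in replicate 2 of SUM159 with YES1i and 139 to 141 CPM in the others. In replicate 1 of MDA-MB-231 with DMSO, SARDH stood at 25.8 CPM, with 27.00 to 27.03 CPM in the other libraries. SARDH had 46.5 CPM in replicate 2 of MDA-MB-231 with YES1i and 49.8 to 50.1 CPM in the others. In replicate 1 of SUM159 with DMSO, ACSL5 stood at 12.2 CPM, with 9.55 to 9.99 CPM in the other libraries. In replicate 1 of MDA-MB-231 with DMSO, DYSF stood at 73.5 CPM, with 77.0 to 77.3 CPM in the other libraries. Of these, replicate 2 of SUM159 with YES1i appeared for 3 genes, ERBB2, DUSP5 and HMG20B. HMG20B was named for its profile near that of ERBB2, so the 3 are not independent. The chi-square over degrees of freedom was 21.7, 11.3 and 19.3 for the pairs with this library, and 3.77 to 6.16 among the others of its group. Leaving this library out changed the call of none of the 8 receptors and ligands between YES1i and DMSO.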

How the results depend on the processing

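Across all alternatives, 5 of the 8 receptors and ligands were called in MDA-MB-231, 6 in SUM159 and 6 for the difference of the changes, and 6 to 8 for the lines in DMSO. No called result changed direction under an alternative, while ERBB2 in SUM159, which was not called, ran from -0.14 to 0.01. Of the values of these 8 genes under alternatives, 773 stayed on their side of the threshold, 4 passed it newly and 15 lost it. The 773 include uncalled values that changed sign, as for ERBB2 in SUM159 and the difference for NRG1 (-0.16 to 0.02). Those that passed newly or lost the call were all EGFR or ERBB2 between the lines in DMSO. EGFR passed there under limma-voom (adjusted p = 0.0406), in a fit of DMSO libraries alone (0.0292), under the replicate block (0.0391) and without replicate 2 of SUM159 with YES1i (0.0422). Of the other named genes 4337 values stayed on their side of the threshold, 21 passed newly and 88 lost the call.

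Without 1 library, 8011 to 9108 genes were called in MDA-MB-231, 8472 to 9204 in SUM159, 4906 to 5600 for the difference and 13323 to 13901 between the lines in DMSO. With the replicate number as a block, 8049, 8416, 4641 and 12883 genes were called. Same-numbered libraries deviated with correlations of -0.037 to 0.012 in MDA-MB-231 and -0.107 to -0.00096 in SUM159. Differently numbered ones ran from -0.041 to 0.046 and from -0.096 to 0.130. These values gave no sign of pairing by number, but deviations from a mean of 4 libraries cannot exclude it. The block changed no call of the 8 genes between YES1i and DMSO, but among the other named genes it ended those of BTC (adjusted p = 0.0569) and ITGB4 (0.0776) in MDA-MB-231, EGF in SUM159 (0.057) and the differences of ACSL5 (0.102) and MCM6 (0.0682). Upper quartile scaling put the median of all genes in SUM159 at 0.14, against 0.02 with TMM, and the share of calls that were higher at 63.4% (5985 higher, 3454 lower), against 48.7% (4431 and 4674). For the difference of the changes that share was 43.9% (2339 higher, 2987 lower), against 61.2% (3362 and 2127). Low counts limit ERBB3 in SUM159 and the low family genes.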
